A study of Mus musculus with 2 samples.

Results

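The genes described are 10 interferon-inducible GTPases of the mouse, 5 guanylate-binding proteins (Gbp2, Gbp3, Gbp4, Gbp5 and Gbp7) and 5 immunity-related GTPases (Iigp1, Igtp, Irgm1, Irgm2 and Gm4951), out of 32285 genes in the count matrices. They were measured by single-cell RNA sequencing of white blood cells, sorted on the surface protein CD45, from the retinal pigment epithelium (RPE) and choroid, the tissue behind the retina. There was 1 library per group: KO, whose genotype label reads IL-17RA CKO, and flox, whose label reads IL-17ra fl. Mice of both groups had received sodium iodate (NaIO3, 20 mg/kg, intraperitoneally), an oxidant that damages the RPE, and there was no group without it. The series title puts the question as protection of the RPE by cytokine signalling through interleukin-17. The labels do not state in which cell type or exons the receptor was deleted, how old the mice were, or how many were pooled.

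The genes were chosen by their levels in KO and flox cells of these same libraries, so every difference between the libraries given for them is a description of these 2 libraries and not a test. Cells were assigned to 6 gates by the unique molecular identifiers (UMIs, counts of captured transcripts) of marker genes. A B cell held at least 2 UMIs of Cd79a, and a T cell at least 2 of Cd3d and Cd3e together. A natural killer (NK) cell held at least 1 of Ncr1 and none of Cd3d or Cd3e. A classical monocyte held at least 3 of F13a1 and Chil3, a nonclassical monocyte at least 2 of Cd300e and Adgre4, and a dendritic cell at least 2 of Cd209a and Clec10a.

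Both families are large GTPases that cells make after interferon, above all interferon-gamma, and that act inside the cell against bacteria and parasites living in vacuoles. Guanylate-binding proteins coat such vacuoles and free bacteria and promote inflammasome activation. Among the immunity-related GTPases, effectors such as Iigp1 load onto the vacuole and break it, while the regulators Igtp, Irgm1 and Irgm2 sit on the cell's own membranes and keep the effectors inactive there. Interferon-gamma is known to act through gamma-activated sites in promoters, and type I interferon through interferon-stimulated response elements.

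In the mm10 (GRCm38) annotation, Gbp5 (chr3:142493978-142522344), Gbp7 (chr3:142530342-142550149), Gbp3 (chr3:142560026-142573209) and Gbp2 (chr3:142620602-142638008) follow each other on the plus strand of chromosome 3. Gbp4 lies on the minus strand at chr5:105115767-105139586 and overlaps the models of Gbp8 and Gbp9 on the same strand. Of the words of 60 bases in the last 500 bases of its transcripts, 15.1% also occur in transcripts of other genes, so its counts are uncertain where copies share reads. Irgm1 lies at chr11:48861968-48871683 on the minus strand. Igtp (chr11:58199556-58207591) and Irgm2 (chr11:58199618-58222782) have overlapping models on the plus strand, and reads from the shared stretch cannot be told apart, although no such word at their transcript ends was shared.

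Promoter windows of RefSeq (build GRCm38.p6, 250 bases before to 50 after the transcript start) were given for 7 of the 10 genes, and Gbp4, Iigp1 and Gm4951 were not among them. They are shown because the motifs below are those that interferon-activated factors are known to bind. The part of the motifs in the levels of the genes was not tested. Each of the 7 genes had a window that held the response element core (GAAA, any 2 bases, GAAA) on one of the strands, and so did 3.44% of all 32851 windows. Gbp3 has 2 windows, of which 1 held the core and is shown. The activated site core TTCNNNGAA, which is its own reverse complement, was held by windows of 4 of the 7 genes (Gbp5, Gbp7, Igtp and Irgm2) and by 8.30% of all windows. Both cores were found together in 0.454% of all windows, and in 24 windows a match of one overlapped a match of the other. A stretch of 80 bases of each window follows, 5′ to 3′ in the direction of the gene, with matches of either core in capitals.
Gbp2: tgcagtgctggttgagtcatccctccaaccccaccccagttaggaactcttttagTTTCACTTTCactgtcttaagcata
Gbp3: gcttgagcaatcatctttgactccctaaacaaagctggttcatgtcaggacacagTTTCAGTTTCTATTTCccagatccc
Gbp5: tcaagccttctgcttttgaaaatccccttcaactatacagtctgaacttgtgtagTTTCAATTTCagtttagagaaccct
Gbp7: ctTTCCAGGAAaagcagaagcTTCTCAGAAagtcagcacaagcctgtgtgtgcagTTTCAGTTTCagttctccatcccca
Igtp: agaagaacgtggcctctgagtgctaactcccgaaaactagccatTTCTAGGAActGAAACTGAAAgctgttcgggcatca
Irgm1: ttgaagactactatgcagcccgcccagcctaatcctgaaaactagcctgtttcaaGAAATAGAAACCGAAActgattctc
Irgm2: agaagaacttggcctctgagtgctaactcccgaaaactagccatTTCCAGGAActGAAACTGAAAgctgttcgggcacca
These stretches lie at chr3:142620549-142620628 (Gbp2), chr3:142559944-142560023 (Gbp3), chr3:142496714-142496793 (Gbp5), chr3:142530228-142530307 (Gbp7) and chr11:58199467-58199546 (Igtp) on the plus strand, chr11:48871426-48871505 (Irgm1) on the minus strand and chr11:58214858-58214937 (Irgm2) on the plus strand. In Gbp3 and Irgm1 the capitals hold 2 overlapping response element cores. The activated site matches of Gbp5, at -245 to -237 and -52 to -44 from the transcript start, lie outside its stretch and are not shown. Those of Igtp and Irgm2 were 77 of 80 bases identical, against 18.75% to 41.25% for the other pairs, which were compared base by base without gaps. In both, an activated site core is followed after 2 bases by a response element core. That arrangement, looked for after it had been seen in these windows, occurred in 5 of the 32851 windows, namely Igtp, Irgm2 and 3 other family genes, Tgtp1, Tgtp2 and Gm12185. A match describes these letters only and is not evidence of binding.

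**Figure D1:**
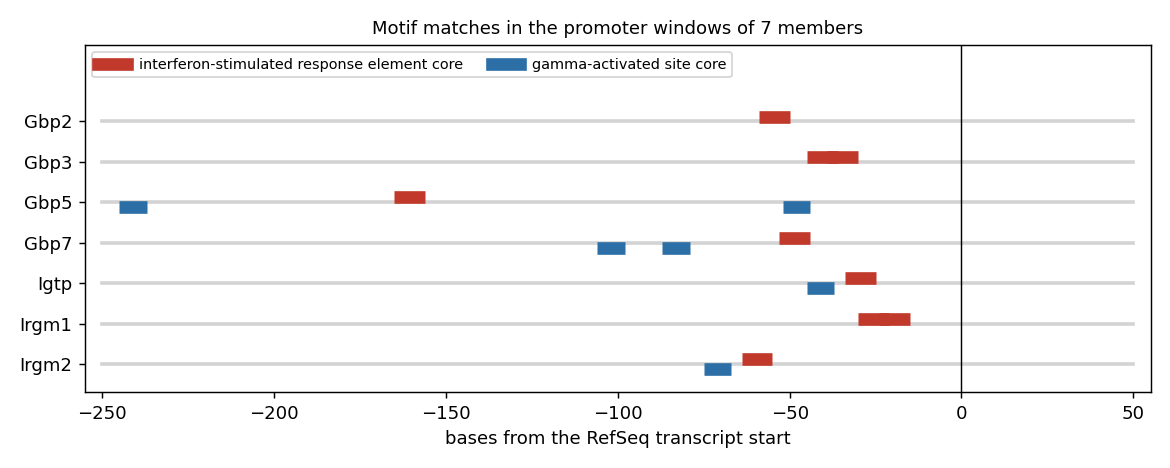
Positions of motif matches in the RefSeq promoter windows of 7 genes, in bases from the transcript start (horizontal axis), with the response element core in red above each line and the activated site core in blue below it. All 7 genes hold the response element core before the start, and 4 hold the activated site core.

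The KO library gave 3982 cells with at least 1000 UMIs and less than 10% mitochondrial UMIs (median 7714 UMIs) and the flox library 3420 (median 8741.5 UMIs), with 3 cell barcodes in common. The gates held 1007 KO and 632 flox B cells, 1663 and 1378 T cells, 276 and 211 NK cells, 312 and 416 classical monocytes, 523 and 545 nonclassical monocytes, and 150 and 203 dendritic cells. All 6 listed markers of each gate were detected in it in both libraries, but the lists include the genes that set the gates. Detection alone did not set the gates apart, as all 6 T cell markers were also detected in the B gate of both libraries. There they summed to 167 CPM in KO and 109 CPM in flox cells, against 7397 and 7355 CPM for the B markers. The gates overlap: 58.7% of KO and 53.4% of flox classical monocytes, 30.0% and 36.0% of nonclassical monocytes and 40.7% and 38.9% of dendritic cells also passed another gate, against at most 5.86% of B, T or NK cells in either library. Il17ra, the targeted gene, was read at 123 CPM in KO and 132 CPM in flox cells (ratio 0.931, interval 0.893 to 0.970). A 3′ tag outside the deleted exons, or a deletion in cells that were not sorted, would not show in it, so this does not check the labels. The libraries also differed in the sex of their cells, read from Xist and 4 Y-linked genes: 39.3% of KO cells were female and 34.6% male, against 65.7% and 15.7% of flox cells. The labels do not state this, and the sex mix and the genotype cannot be told apart except within one sex.

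Levels are UMIs per 1000000 UMIs of the gate (CPM) with exact 95% Poisson intervals. Ratios are KO over flox with conditional 95% intervals, and shares of cells carry exact Clopper-Pearson intervals. All of these cover counting error only, and no difference has a replicate check. A gene counted as measured in a gate with at least 20 UMIs over both libraries, and as lower with a ratio of at most 1/1.5, that is, at least 1.5-fold lower.

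Summed over the 10 genes and all cells of a gate, the GTPases were lower in KO than in flox cells in every gate. The gap was smallest in B and NK cells and largest in nonclassical monocytes. Nonclassical monocytes, which patrol the vessel wall, held 173 CPM in KO and 481 CPM in flox cells (ratio 0.360, 0.336 to 0.386). In that gate T cell markers summed to 91.6 CPM in KO and 37.2 CPM in flox cells and NK markers to 28.3 and 5.56 CPM, with all 6 of each detected, and RPE and photoreceptor markers to 31.1 and 8.79 CPM, with 4 and 3 of 6 detected. Classical monocytes held 241 CPM in KO and 460 CPM in flox cells (0.525, 0.490 to 0.562), and dendritic cells 162 and 298 CPM (0.546, 0.488 to 0.610). Dendritic cells that passed no other gate held 125 CPM in KO and 205 CPM in flox cells (0.609, 0.513 to 0.720). Macrophage and microglia markers summed to 129 CPM in KO and 268 CPM in flox dendritic cells, with all 6 detected, and the part of these markers in the results was not tested. T cells held 367 CPM in KO and 585 CPM in flox cells (0.627, 0.606 to 0.650). The gap was small in the other gates, at 121 CPM in KO and 140 CPM in flox B cells (0.863, 0.777 to 0.959) and 235 and 271 CPM in NK cells (0.864, 0.762 to 0.981). B cells that passed no other gate held 108 CPM in KO and 116 CPM in flox cells (0.931, 0.827 to 1.05), with an interval that included 1. Nonclassical monocytes had UMIs of 1.23 of the 10 genes per cell in KO and 2.35 in flox cells, and 40.3% of KO and 24.8% of flox cells had none of them. After thinning each cell to 1000 UMIs, 86.8% of KO and 72.7% of flox cells had none.

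By gene, 9 of 10 were lower in nonclassical monocytes, beside 6.27% of the 11250 genes measured there, and 9 of 10 in classical monocytes, beside 6.16% of genes. In dendritic cells 8 of 9 were lower (6.36% of genes), and in T cells 5 of 10 (7.01%). In B cells 2 of 9 were lower (7.86%), and in NK cells 0 of 8 (6.42%). No gene of the 10 was at least 1.5-fold higher in KO cells in any of the 6 gates, beside 4.92% of all measured genes in nonclassical monocytes, 7.08% in classical monocytes, 8.3% in dendritic cells, 5.58% in T cells, 5.23% in B cells and 7.9% in NK cells. Of 56 measured values of a gene in a gate, 33 were lower and 23 within 1.5-fold. An interval wholly below 1 was found for 39 of the 56, and the share of all genes with such an interval was not computed. The median log2 ratio was -1.25 in nonclassical monocytes, -0.98 in classical monocytes, -0.86 in dendritic cells, -0.62 in T cells, -0.23 in NK cells and -0.11 in B cells. Over all measured genes the medians lay between -0.01 and 0.05. As the genes were listed knowing this comparison, nothing is read from these counts.

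**Figure D2:**
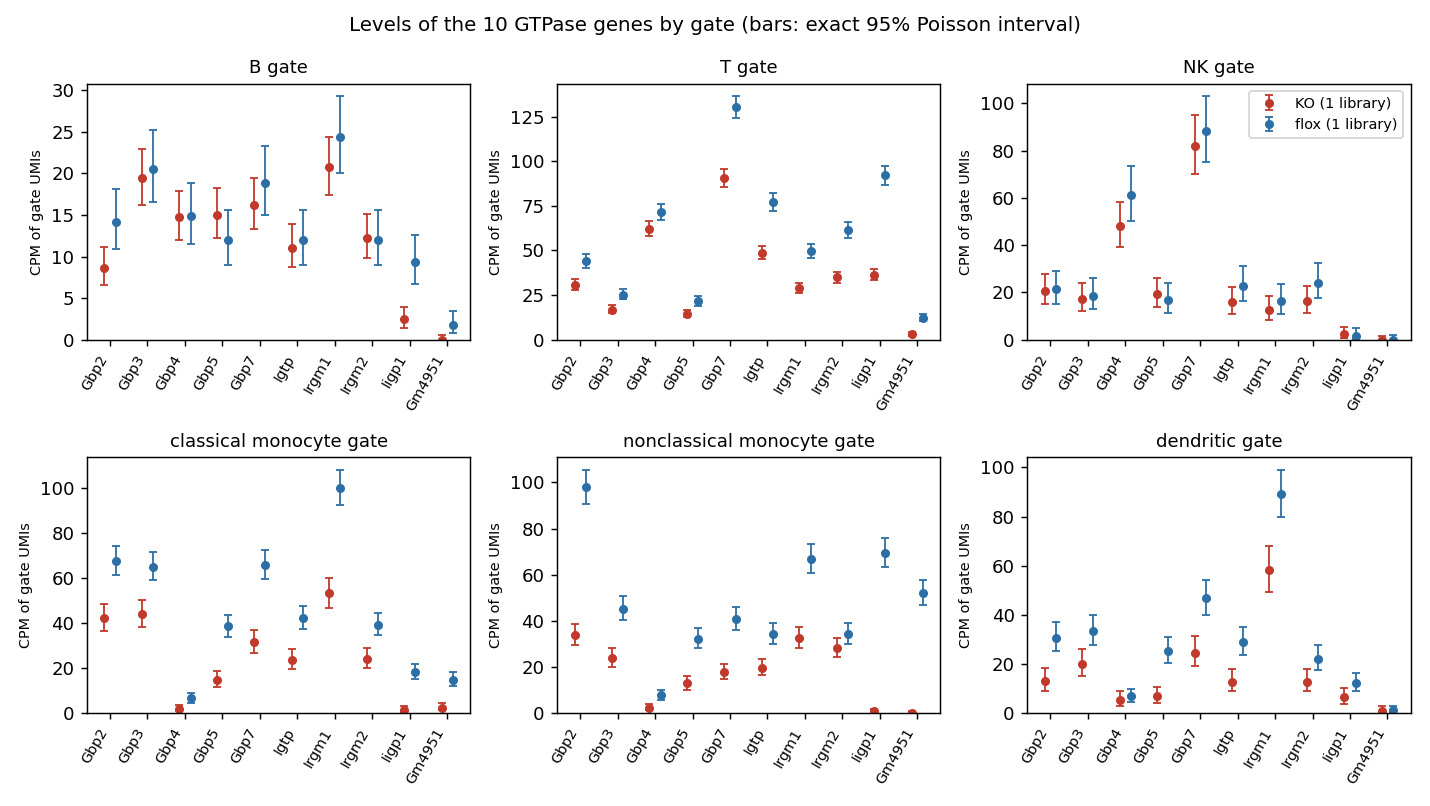
Level of each of the 10 genes (vertical axis, CPM of the gate's UMIs, with its own scale in each panel) in KO (red, left) and flox (blue, right) cells of the 6 gates, with bars for exact 95% Poisson intervals and 1 library per point. In nonclassical monocytes Iigp1 and Gm4951 are near 0 in KO cells, and in NK cells the intervals of every gene overlap.

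The effector Iigp1 and Gm4951, a gene annotated to the same family, differed most in monocytes and T cells. Gm4951 (chr18:60212080-60247820) and Iigp1 (chr18:60376027-60392634) lie 128 kb apart on the plus strand of chromosome 18. In nonclassical monocytes Iigp1 had 6 UMIs in KO and 474 UMIs in flox cells, or 0.966 and 69.4 CPM (ratio 0.014, 0.0051 to 0.031). Gm4951 had 1 UMI in KO and 355 UMIs in flox cells, or 0.161 and 52.0 CPM (ratio 0.0031, 7.8e-05 to 0.017). Iigp1 was found in 3 of 523 KO cells (0.574%, 0.118% to 1.67%) and in 90 of 545 flox cells (16.5%, 13.5% to 19.9%). Gm4951 was found in 1 KO cell (0.191%) and in 80 flox cells (14.7%). Most flox cells of this gate thus had no UMI of either gene, and the level came from a minority of cells.

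Per positive flox cell there were 5.27 UMIs of Iigp1, and 13 of the 90 cells held 10 or more. The highest single cell gave 6.54% of the Iigp1 UMIs, so the flox level did not rest on 1 cell. The 2 genes were found in the same flox cells: 62 cells had both, 28 had Iigp1 alone, 18 Gm4951 alone and 437 neither. Gm4951 was thus in 68.9% of flox cells with Iigp1 and in 3.96% of those without, which share a library and differ in depth. Thinned to 1000 UMIs, Iigp1 was in 0.191% of KO and 5.14% of flox cells and Gm4951 in 0% of KO and 3.12% of flox cells.

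As a guide to background, NK cells had Iigp1 in 4 of 276 KO cells (1.45%) and 2 of 211 flox cells (0.948%), at median depths of 6941.5 and 7676 UMIs, against 10883 and 11654 in nonclassical monocytes. Gm4951 was in 0 NK cells of either library, which, taken as 3 counts of the total, allows a share of cells with a UMI of up to 1.09% in KO and 1.42% in flox cells (exact upper limits 1.33% and 1.73%). The share of KO nonclassical monocytes with Iigp1 was not above that of NK cells, with overlapping intervals, and no expression is read from it. Flox barcodes of at most 100 UMIs, which were not counted as cells, held Iigp1 at 43.9 CPM, and the part of such RNA in the flox levels was not tested. Among cells that passed the nonclassical gate and no other, Iigp1 had 0 UMIs in 366 KO cells and 374 UMIs in 349 flox cells, 69 of which held it. Against a floor of 3 counts in the KO library, that is at least 126-fold lower in KO cells, and the end of the conditional interval is 102-fold. Gm4951 had 0 UMIs in KO and 265 UMIs in flox cells of that kind, at least 89.3-fold lower on the same floor and 72.1-fold at the end of the interval.

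Among flox nonclassical monocytes with a sex call, these genes were seen in female cells and not in male ones. In flox T cells, unlike this, Iigp1 was in 75 of 200 male cells (37.5%) and in 159 of 976 female cells (16.3%). Iigp1 was in 70 of 388 female flox nonclassical monocytes (18.0%) and in 0 of 53 male ones, which, taken as 3 counts, allows a share of cells with a UMI of up to 5.66% (exact upper limit 6.72%). Gm4951 was in 61 of the female cells (15.7%) and in 0 of the male cells. Cells with both Xist and Y-linked UMIs, or with neither, had no sex call. They make up the rest of the 90 flox cells with Iigp1 and the 80 with Gm4951. Among KO nonclassical monocytes, Iigp1 was in 2 of 241 female cells (0.830%) and 1 of 170 male cells. Within female cells alone, Iigp1 stood at 1.07 CPM in KO and 70.3 CPM in flox cells (ratio 0.015, 0.0031 to 0.045). In male cells neither gene reached 20 UMIs, so the ratio could not be measured there.

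In classical monocytes Iigp1 had 1.62 CPM in KO and 18.3 CPM in flox cells (0.089, 0.037 to 0.181), and Gm4951 2.64 and 14.98 CPM (0.176, 0.090 to 0.315). Much of this came from cells of more than 1 gate. Among cells of this gate alone, Gm4951 had 12 UMIs in KO and 10 in flox cells (ratio 1.61, 0.636 to 4.15), while Iigp1 kept 1 and 29 UMIs (0.046, 0.0011 to 0.278). Markers of RPE and photoreceptors summed to 586 CPM in KO and 6.87 CPM in flox classical monocytes, with 4 and 3 of 6 detected, and their part in the result was not tested. In T cells Iigp1 stood at 36.5 CPM in KO and 92.1 CPM in flox cells (0.397, 0.357 to 0.440), found in 161 of 1663 (9.68%) and 287 of 1378 cells (20.8%). Gm4951 had 3.08 CPM in KO and 12.2 CPM in flox T cells (0.252, 0.177 to 0.353). The T cell gap in Iigp1 was therefore smaller than that in nonclassical monocytes, and KO T cells retained it.

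**Figure D3:**
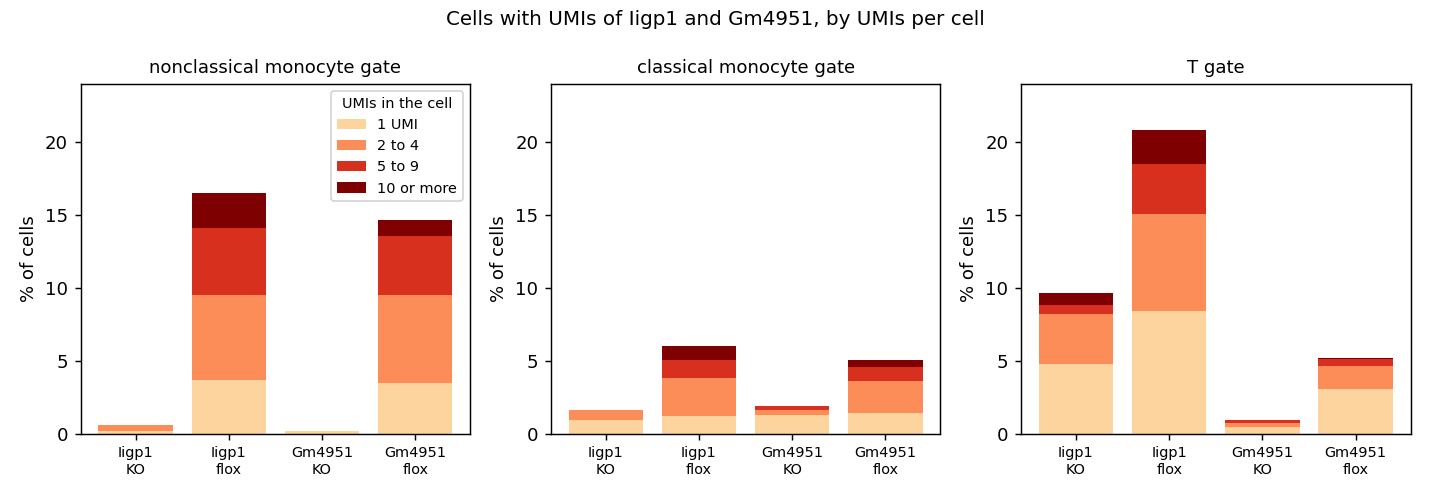
Share of cells with UMIs of Iigp1 and Gm4951 (vertical axis, percent of the gate's cells) in 3 gates, KO left of flox for each gene, coloured by the UMIs per cell. In nonclassical monocytes 16.5% of flox cells and 0.574% of KO cells held Iigp1, and 13 flox cells held 10 or more UMIs.

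Dendritic cells had little of either gene. Iigp1 was at 6.63 CPM in KO and 12.2 CPM in flox cells (0.542, 0.296 to 0.953), and Gm4951 had 3 and 5 UMIs. In dendritic cells that passed no other gate Iigp1 had 16 UMIs in KO and 30 in flox cells (0.721, 0.367 to 1.37). In B cells Iigp1 was at 2.48 CPM in KO and 9.29 CPM in flox cells (0.267, 0.142 to 0.479), but 64.7% of the KO and 42.9% of the flox UMIs came from 1 cell each. In B cells that passed no other gate it had 0 UMIs in KO and 11 in flox cells.

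The regulators Igtp, Irgm1 and Irgm2 differed less than Iigp1 in monocytes and T cells and were found in many cells of both libraries. In dendritic cells Igtp had a lower ratio (0.445) than Iigp1 (0.542), with overlapping intervals. Irgm1, which is required in mice for resistance to mycobacteria, had 53.3 CPM in KO and 100 CPM in flox classical monocytes (0.531, 0.459 to 0.614). It had 32.7 and 66.9 CPM in nonclassical monocytes (0.489, 0.412 to 0.578), 28.8 and 49.4 CPM in T cells (0.582, 0.513 to 0.660) and 58.2 and 89.1 CPM in dendritic cells (0.653, 0.537 to 0.791). Its intervals did not overlap in any of these 4 gates. In B cells it stood at 20.7 CPM in KO and 24.3 CPM in flox cells, and in NK cells at 12.7 and 16.4 CPM, with overlapping intervals.

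Igtp, which with Irgm2 and Irgm1 restrains the effectors on host membranes, had 48.7 CPM in KO and 77.1 CPM in flox T cells (0.632, 0.573 to 0.696). It had 19.8 and 34.3 CPM in nonclassical monocytes (0.578, 0.461 to 0.722), 23.9 and 42.5 CPM in classical monocytes (0.564, 0.450 to 0.702) and 12.9 and 29.0 CPM in dendritic cells (0.445, 0.295 to 0.656). Irgm2 had 34.9 CPM in KO and 61.4 CPM in flox T cells (0.568, 0.507 to 0.635) and 24.3 and 39.5 CPM in classical monocytes (0.616, 0.492 to 0.769). In nonclassical monocytes it was the only one of the 10 genes within 1.5-fold, at 28.3 CPM in KO and 34.4 CPM in flox cells (0.824, 0.674 to 1.01). Igtp and Irgm2, whose shown promoter stretches are nearly identical, thus had ratios of 0.578 and 0.824 in that gate with overlapping intervals.

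Of the guanylate-binding proteins, Gbp2, which gathers on pathogen vacuoles, had 34.0 CPM in KO and 97.8 CPM in flox nonclassical monocytes (0.347, 0.296 to 0.406). It had 42.4 and 67.6 CPM in classical monocytes (0.627, 0.529 to 0.741), where 1 KO cell gave 16.3% of the UMIs, and 13.3 and 30.8 CPM in dendritic cells (0.430, 0.287 to 0.629). In B cells it stood at 8.61 CPM in KO and 14.2 CPM in flox cells (0.608, 0.419 to 0.880). Gbp5, which promotes inflammasome assembly, had 15.01 CPM in KO and 38.7 CPM in flox classical monocytes (0.388, 0.295 to 0.505), 13.05 and 32.4 CPM in nonclassical monocytes (0.403, 0.309 to 0.522) and 6.99 and 25.5 CPM in dendritic cells (0.274, 0.158 to 0.452). Over all cells both genes were lower in the 3 myeloid gates. In dendritic cells that passed no other gate Gbp2 had 11 UMIs in KO and 25 in flox cells (0.595, 0.264 to 1.25). Gbp5 had 11 and 37 UMIs there (0.402, 0.185 to 0.805). Among female cells Gbp5 had ratios of 1.01 in classical monocytes and 1.17 in dendritic cells and Gbp2 0.831 in dendritic cells, and among male nonclassical monocytes Gbp2 had 0.837 (0.591 to 1.20).

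Gbp7, linked to oxidative killing in phagocytes, had 31.8 CPM in KO and 66.0 CPM in flox classical monocytes (0.482, 0.399 to 0.581), 17.9 and 40.9 CPM in nonclassical monocytes (0.438, 0.348 to 0.547) and 24.7 and 46.8 CPM in dendritic cells (0.527, 0.392 to 0.702). Gbp3 had 23.999 CPM in KO and 45.4 CPM in flox nonclassical monocytes (0.529, 0.432 to 0.645). In classical monocytes it had 44.2 and 65.2 CPM (0.678, 0.573 to 0.800), just within 1.5-fold and the only gene there that was. Gbp4 was scarce in monocytes, at 2.03 CPM in KO and 6.71 CPM in flox classical monocytes and 2.58 and 7.91 CPM in nonclassical monocytes. In dendritic cells it was the only measured gene within 1.5-fold, with 15 UMIs in KO and 26 in flox cells.

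In the T gate as a whole, the 5 genes that were lower were all immunity-related GTPases, while the 5 guanylate-binding proteins had ratios of 0.670 (Gbp3), 0.681 (Gbp5), 0.694 (Gbp7), 0.700 (Gbp2) and 0.869 (Gbp4), each with an interval below 1. Gbp3, at 16.9 CPM in KO and 25.3 CPM in flox T cells, lay just inside 1.5-fold, and Igtp, at 0.632, just outside it, so the division rests on where the limit is set. It was not present within either sex: in female T cells Gbp3 (0.623) and Gbp5 (0.630) were lower while Igtp (0.701) and Irgm2 (0.680) were within 1.5-fold, and in male T cells all 10 genes were lower. Gbp7 stood at 90.5 CPM in KO and 130 CPM in flox T cells and Gbp4 at 62.1 and 71.5 CPM. In NK cells, Gbp7 had 81.8 CPM in KO and 88.5 CPM in flox cells and Gbp4 48.0 and 61.2 CPM, and the intervals of all 8 measured ratios included 1. NK markers summed to 918 CPM in KO and 383 CPM in flox T cells, with all 6 detected in both, and B markers to 190 and 47.5 CPM in NK cells, with 6 and 4 of 6 detected. Their part in the results was not tested.

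**Figure D4:**
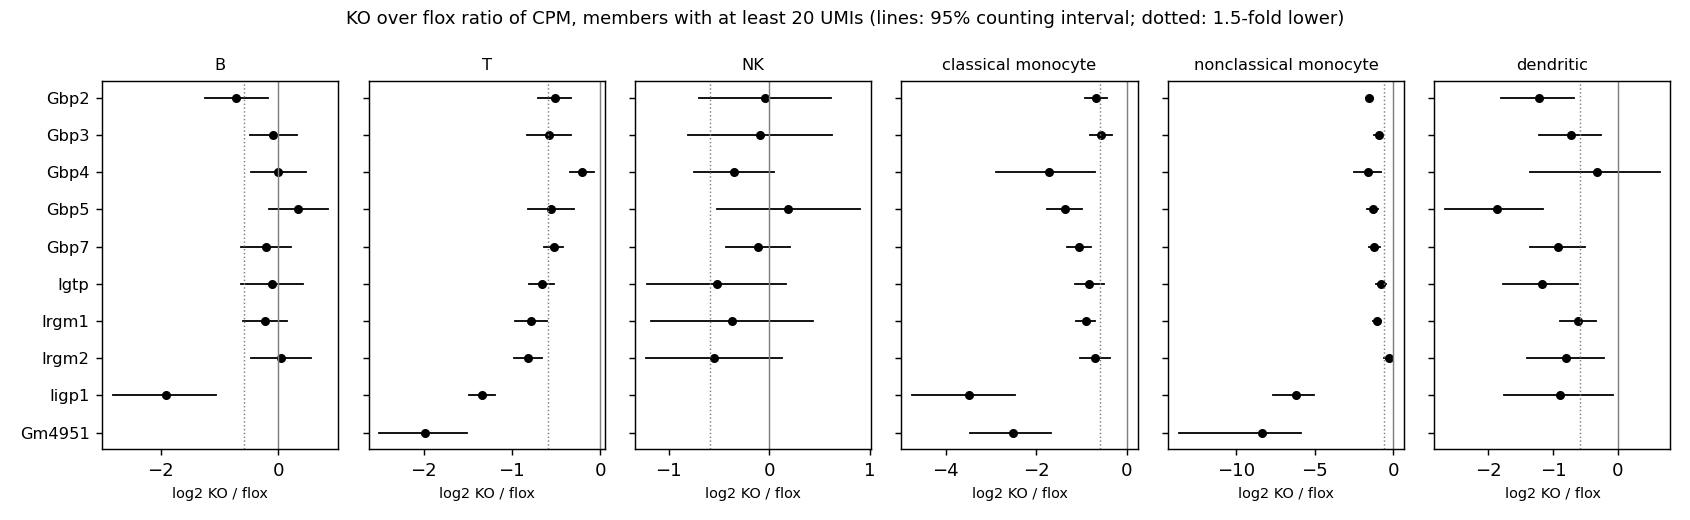
log2 ratio of CPM, KO over flox (horizontal axis, with its own scale in each panel), for each gene with at least 20 UMIs in the gate, with lines for 95% counting intervals, a grey line at no difference and a dotted line at 1.5-fold lower. No interval lies wholly above 0, and those of Iigp1 and Gm4951 in nonclassical monocytes reach furthest below it.

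The T gate held 274 KO and 336 flox cells with Cd4 and no Cd8a or Cd8b1 UMI, and 1032 and 650 cells of the opposite kind. In CD4 T cells the 10 genes summed to 537 CPM in KO and 775 CPM in flox cells (0.693, 0.646 to 0.743), and in CD8 T cells to 341 and 551 CPM (0.618, 0.589 to 0.649). Iigp1 was higher in CD4 than in CD8 T cells of both libraries, at 108 CPM in KO and 200 CPM in flox CD4 cells (0.540, 0.464 to 0.628) and 21.5 and 60.3 CPM in CD8 cells (0.357, 0.300 to 0.424). In CD4 cells 3 genes were lower (Iigp1, Irgm2 and Gm4951; 9.03% of all genes measured there), and Gbp2, at 44.1 CPM in KO and 41.8 CPM in flox cells, and Gbp5, at 17.2 and 17.1 CPM, did not differ beyond counting error. In CD8 cells 8 genes were lower (6.01% of all genes), with Gbp4 and Gbp7 within 1.5-fold. The difference between the subsets was not tested.

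Within one sex the picture changed by gate. Nonclassical monocytes kept the difference in both sexes, with sums of 146 CPM in KO and 452 CPM in flox female cells (0.323, 0.290 to 0.359) and 227 and 440 CPM in male cells (0.516, 0.449 to 0.594). There, 9 of 10 genes were lower in female cells (9.06% of all genes) and 5 of 7 in male cells (8.55%). T cells summed to 330 CPM in KO and 465 CPM in flox female cells (0.709, 0.669 to 0.750), with 5 of 10 genes lower (7.38%). In male T cells the sums were 391 CPM in KO and 1107 CPM in flox cells (0.353, 0.333 to 0.374), with 10 of 10 lower (7.86%).

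Classical monocytes summed to 259 CPM in KO and 365 CPM in flox female cells (0.709, 0.641 to 0.783), with 4 of 10 genes lower (7.88%), and to 240 and 662 CPM in male cells (0.362, 0.325 to 0.403), with 7 of 7 lower (7.2%). In female dendritic cells the sums were 221 CPM in 54 KO cells and 211 CPM in 156 flox cells (1.05, 0.888 to 1.23), with 0 of 9 genes lower (12.1%) and 1 higher (10%). In male dendritic cells they were 150 CPM in 64 KO cells and 607 CPM in 34 flox cells (0.246, 0.207 to 0.293), with 7 of 7 lower (9.19%). The lower level of the dendritic gate as a whole was therefore not present among its female cells.

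In female B cells 1 of 9 genes was lower (9.64%), and in male B cells 1 of 8 (7.91%). The sums there were 125 CPM in KO and 128 CPM in flox female cells and 112 and 116 CPM in male cells, with overlapping intervals. Female NK cells summed to 244 CPM in KO and 250 CPM in flox cells, with 2 of 8 genes lower (7.89%), and male NK cells to 214 and 346 CPM in 57 and 27 cells (0.618, 0.459 to 0.833), with 2 of 3 lower (11.9%). Apart from B cells and nonclassical monocytes, male flox cells had the highest sum of the 4 kinds of cell in each gate. How many animals stand behind each sex is not stated, so sex and animal cannot be told apart.

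**Figure D5:**
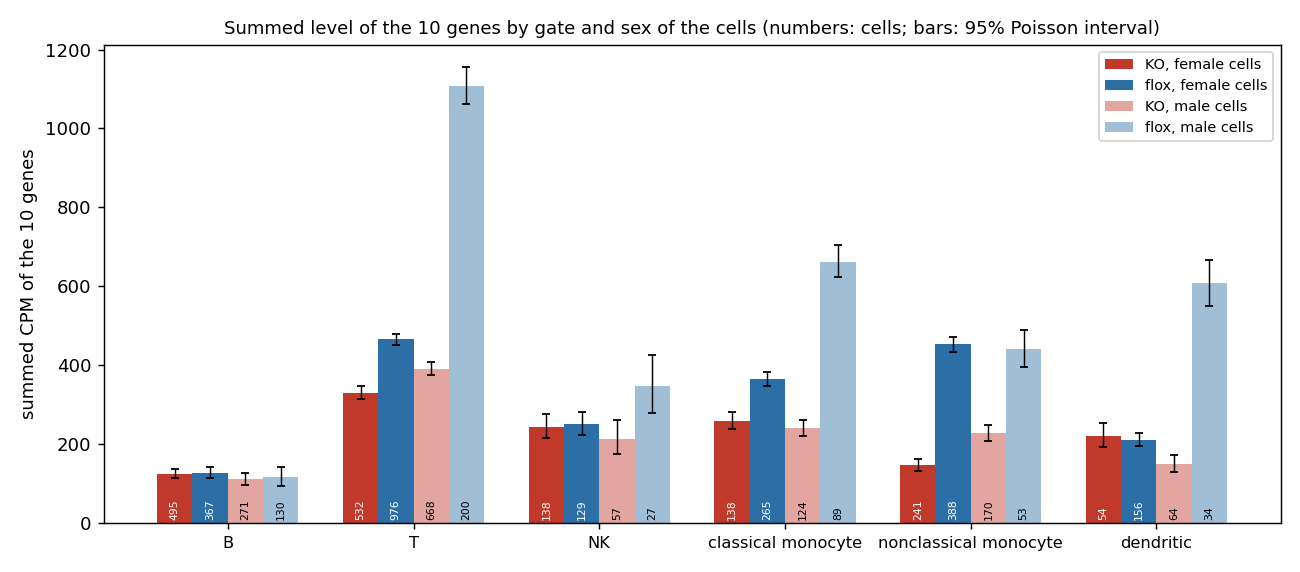
Summed level of the 10 genes (vertical axis, CPM) in each gate for female cells (dark) and male cells (pale), KO in red left of flox in blue, with bars for exact 95% Poisson intervals and numbers of cells at the foot. Male flox T cells stand at 1107 CPM against 391 CPM in male KO T cells, and female dendritic cells at 221 CPM in KO and 211 CPM in flox.

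Across gates, some genes had the same highest gate in both libraries. Gbp4 and Gbp7 were highest in T cells, followed by NK cells. In KO cells their T and NK intervals overlapped, and in flox cells those of Gbp4 did while those of Gbp7 did not. Gbp3 was highest in classical monocytes of both libraries, above the next gate by more than its interval. Irgm1, unlike these, was highest in dendritic cells in KO and in classical monocytes in flox, with overlapping intervals between these gates in each library.

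Other genes changed place between the libraries. Iigp1 followed the order T, dendritic, B, NK, classical and nonclassical monocytes in KO cells, of which the last 5 overlapped neighbour by neighbour. In flox cells the order was T, nonclassical monocytes, classical monocytes, dendritic, B and NK cells. Gbp2 was highest in classical monocytes in KO, overlapping nonclassical monocytes, and highest in nonclassical monocytes in flox, beyond the interval of the next gate. Gm4951 was highest in T cells in KO, overlapping classical monocytes, and in nonclassical monocytes in flox. Gbp5 was highest in NK cells in KO, at 19.3 CPM, and in classical monocytes in flox, at 38.7 CPM, overlapping the next gate in each library.

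Of a list of 18 other GTPases, most of them of the same families, 16 were found by name in the matrices. Of those measured, 10 were lower and 1 higher of 14 in classical monocytes (6.16% and 7.08% of all genes), and 6 and 0 of 14 in nonclassical monocytes (6.27% and 4.92%). Counts were 8 and 1 of 15 in T cells (7.01% and 5.58%), 3 and 0 of 11 in dendritic cells (6.36% and 8.3%), 1 and 1 of 11 in B cells (7.86% and 5.23%) and 1 and 0 of 9 in NK cells (6.42% and 7.9%). The 2 with most UMIs in nonclassical monocytes were 9930111J21Rik2, at 121 CPM in KO and 130 CPM in flox cells (0.932, 0.845 to 1.03), and Ifi47, an immunity-related GTPase, at 60.9 and 108 CPM (0.563, 0.496 to 0.638). Ifi47 also led the list in classical monocytes, at 102 CPM in KO and 208 CPM in flox cells (0.489, 0.440 to 0.542), and in T cells, at 85.1 and 130 CPM (0.656, 0.609 to 0.707). Nothing particular to the list is read from these counts. Named after their values had been seen are Tgtp2, Tgtp1 and Gm12185, with the same motif spacing as Igtp, and F830016B08Rik. In classical monocytes Tgtp2 had 5.07 CPM in KO and 17.3 CPM in flox cells, and Tgtp1 1.22 and 3.75 CPM. Gm12185 was within 1.5-fold there, at 59.4 and 78.5 CPM (0.757, 0.653 to 0.876). The part of the spacing in these levels was not tested. F830016B08Rik, which lies between Gm4951 and Iigp1 (chr18:60293380-60303016), had 0 UMIs in KO and 91 UMIs in 32 flox nonclassical monocytes, at least 27.6-fold lower against a floor of 3 counts in the KO library, with a conditional upper limit of the ratio of 0.046.

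Of 20 genes of interferon-gamma signalling and its targets, 6 were lower and 2 higher of 20 measured in nonclassical monocytes (6.27% and 4.92% of all genes), and 4 and 1 of 19 in classical monocytes (6.16% and 7.08%). Counts were 5 and 0 of 19 in dendritic cells (6.36% and 8.3%), 5 and 1 of 19 in T cells (7.01% and 5.58%), 4 and 0 of 19 in NK cells (6.42% and 7.9%) and 0 and 1 of 18 in B cells (7.86% and 5.23%). The 4 with most UMIs in nonclassical monocytes lay within 1.5-fold. B2m, the light chain of MHC class I, had 2798 CPM in KO and 3129 CPM in flox cells (0.894, 0.877 to 0.913). Ifngr1, the ligand-binding receptor chain, had 803 CPM in KO and 705 CPM in flox cells (1.14, 1.09 to 1.18), the opposite direction to the GTPases. Psmb8, an immunoproteasome subunit, had 448 and 587 CPM (0.762, 0.726 to 0.800), and Irf1, a transcription factor of the pathway, 288 and 376 CPM (0.767, 0.721 to 0.815). These are RNA levels, and their part in the low Iigp1 and Gm4951 of KO cells in that gate was not tested.

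Other members of that list are named after their values had been seen. Ifng itself, the ligand, was higher in KO T cells, at 212 CPM against 112 CPM in flox T cells (1.89, 1.78 to 2.02). The KO T gate also held more CD8 cells and a higher sum of NK markers, and their part in this ratio was not tested. Cxcl10, a chemokine target, had 10.8 CPM in KO and 84.3 CPM in flox nonclassical monocytes (0.128, 0.098 to 0.165). Cxcl9, another chemokine target, was one of the 2 higher genes in that gate, at 26.1 CPM in KO and 2.05 CPM in flox cells, but 98.8% of its KO UMIs came from 1 cell. The other was Ifng, with 15 UMIs in KO and 10 in flox cells.

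Over the 12 sums of a gate in a library, 4 of the 5 genes most like the mean of the 10 (Pearson correlation of log2(CPM + 1), 9277 candidate genes with at least 500 UMIs) were Ddx60 (0.895), Parp10 (0.854), Herc6 (0.853) and Tgtp2 (0.844). The points share libraries and, for the overlapping gates, cells, and the correlations are given as a description.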

How the data were processed

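CD45+ cells of 2 libraries were sequenced with a 3′ kit that the labels call version v2; the flox matrix lists 1002803 barcodes, so that version is uncertain for it. The authors counted UMIs per gene and barcode with Cell Ranger on mm10, per the submitters' processing notes, and deposited whole-number counts. Per the file headers, version 7.0.1 wrote the KO matrix, which holds 4096 called barcodes, and version 4 the flox matrix, which is unfiltered. KO holds 35944330 and flox 38623933 UMIs. No column of other samples was present.

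The gates, the 10 genes and all lists were chosen with earlier results of these data known. Cells with at least 1000 UMIs and less than 10% mitochondrial UMIs were kept, and UMIs were summed per gate and library (Python 3.11.15, numpy 2.4.6, scipy 1.17.1). Doublets were not removed; Scrublet (scanpy 1.11.5) called 56 KO (1.41%) and 24 flox (0.702%) cells, which an alternative leaves out. With 1 library per group no test was made. Ratios use total UMIs of the gate; log2 ratios add 0.5 UMIs. Named beside the 10 genes are the 2 to 4 list genes with most UMIs in a gate and the 5 genes most alike; others are marked as chosen after their values were seen, and 1 gene is not reported here. Cells with Xist and none of Ddx3y, Eif2s3y, Kdm5d and Uty were called female, the reverse male, and cells with both or neither got no sex. Gene positions are from GENCODE vM21 and promoters from RefSeq, neither being the annotation the authors are known to have used.

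The calling was tested on simulated data: all 200 genes lowered 3-fold (100%) were recovered in the T gate (13371 genes) and 100% in the dendritic gate (10329 genes). Of unchanged genes, 4.81% and 7.19% passed 1.5-fold in either direction. The lowered genes had at least 20 expected UMIs in flox. The simulated counts held counting error only, so they do not cover differences between cells, animals or libraries. Alternatives changed the UMI minimum (500 or 2000), the mitochondrial maximum (5% or 20%), doublets, overlapping and stricter gates, scaling, cell weights, thinning to 1000 UMIs, the highest cell, sex, T cell subset, the UMI minimum of a gene, the fold and the UMIs added.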

Additional observations from a re-analysis of the deposited data

Results flagged for a closer look

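Signal was present outside the gated cells. Flox barcodes of at most 100 UMIs (778499 barcodes with 3213373 UMIs, not counted as cells) held the 10 genes at 376 CPM in sum, with Iigp1 at 43.9 CPM and Gm4951 at 9.34 CPM. The KO matrix holds called barcodes only, so no such value was computed for it. For comparison, flox NK cells held Iigp1 at 1.64 CPM and Gm4951 at 0 UMIs.

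Cells that passed none of the 6 gates (323 in KO and 319 in flox) held 199 CPM in KO and 223 CPM in flox in sum (ratio 0.892, 0.798 to 0.995). Among these cells Irgm1 was lower, at 27.0 CPM in KO and 66.5 CPM in flox (0.406, 0.307 to 0.530), and Gbp4 was higher, at 21.7 and 9.69 CPM (2.24, 1.45 to 3.48). One KO cell gave 39.8% of their Gbp2 UMIs. These values were set aside because the comparisons use gated cells, and each sum lies above the limit that a count of 0 allows (0.934 CPM in the barcodes of at most 100 UMIs).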

How the results depend on the processing

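No sum of the 10 genes left its counting interval, and no count moved by over 1.5 times, with at least 500 or 2000 UMIs per cell, at most 5% or 20% mitochondrial UMIs, without doublets, or with stricter gates, median-ratio scaling (shift of at most 0.03 on the log2 scale) or no UMI minimum per gene. Of 172 recomputed sums and counts, 131 were unchanged in this sense, 39 moved and 2 reversed; of 800 single ratios and medians, 700, 88 and 12.

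Requiring 2-fold, which is stricter by construction, left 1 gene in B cells, 2 in T cells, 5 in classical monocytes and 3 in dendritic cells. Without cells of more than 1 gate, B cells had 1 lower gene and the nonclassical sum ratio was 0.274, while Gm4951 in classical monocytes reversed to 1.61. Thinning, which leaves fewer UMIs, gave 1 lower gene in B, NK and dendritic cells, 4 in classical and 5 in nonclassical monocytes, with sum ratios of 1.10 in B cells (reversed), 0.658 in T cells and 0.471 in classical monocytes. It reversed Gbp3 in T cells (1.14) and Irgm2 in classical monocytes (1.33). Without the highest cell of each library, NK cells had 1 lower gene. With the mean of each cell's CPM, B cells had 1 and NK cells 2, and the sum ratios were 0.566 in classical monocytes and 0.614 in dendritic cells. The share of all genes that were lower was not computed under the settings of this paragraph, so nothing is read from these counts.

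Female cells gave 1 lower gene in B, 2 in NK, 4 in classical monocytes and 0 in dendritic cells, with sum ratios of 0.978 (B), 0.709 (T and classical monocytes), 0.323 (nonclassical) and 1.05 (dendritic, reversed). Reversed among female cells were Gbp5 in classical monocytes (1.01) and, in dendritic cells, Gbp5 (1.17), Gbp7 (1.09), Irgm1 (1.08), Irgm2 (1.43) and the median log2 ratio (0.11). Male cells gave 1 lower gene in B, 2 in NK, 10 in T cells and 5 in nonclassical monocytes, with sum ratios of 0.964 (B), 0.618 (NK), 0.353 (T), 0.362 (classical), 0.516 (nonclassical) and 0.246 (dendritic), and Gbp2 in B cells reversed to 2.51. CD4 T cells gave 3 lower genes and a sum ratio of 0.693, with Gbp2 (1.05) and Gbp5 (1.003) reversed, and CD8 T cells gave 8. Where no construction is named, the cause was not tested.

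No paired analysis was possible because there is 1 library per group, and there was no replicate to leave out. Intervals cover counting error only. Genotype, animals, library and Cell Ranger version cannot be told apart. Gm4951 in NK, B and dendritic cells and Iigp1 in NK cells had fewer than 20 UMIs and did not count as measured.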

Other observations

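Which genes were found in the same cells as Iigp1 differed by gate, as seen in Pearson correlations across cells of log-scaled counts, described only and chosen after the data had been seen. Among 545 flox nonclassical monocytes, the highest among 6631 genes were Gm4951 (0.71), Ly6a, a surface protein induced by interferon (0.60), and Serpina3g, a protease inhibitor (0.58). Ifit1 (-0.05) and Rsad2 (-0.02), classic type I interferon-induced genes, were near 0 there. Among 1378 flox T cells, the highest of 8676 genes were Ifit1 (0.49), Rsad2 (0.47) and Slfn5 (0.45), with Gm4951 at 0.42 and Serpina3g at 0.03. Among 1663 KO T cells, Ifit1 (0.39) again came first. Cells of a gate share a library and differ in depth and sex, and the difference between gates was not tested.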
